A study of Mus musculus with 12 samples.

Results

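The genes described here are 10 genes by which liver sinusoidal endothelium is recognised or through which it signals to its neighbours: *Stab1*, *Stab2*, *Lyve1*, *Clec4g*, *Oit3*, *Fcgr2b*, *Kdr*, *Bmp2*, *Wnt2* and *Rspo3*. They were chosen by name. Of these 10 genes, 9 were in the table of 11289 genes, and *Wnt2* was not analysed here. RNA sequencing of whole liver was performed on 12 C57BL/6J mice in 3 groups of 4. The mice were 8 to 10 weeks old per the sample labels, whereas the methods of the study give a younger range. The control group is labelled only as control. The other 2 groups received a single tail vein injection of concanavalin A (Con A), a T cell mitogen from jack bean that injures the liver, at 15 mg/kg. They were then given either the vehicle PBS (Con A + PBS group) or human mesenchymal stromal cells from the Wharton's jelly of the umbilical cord (Con A + hWJ-MSCs group) intravenously 30 min later. Livers were collected 24 h later. The labels number the mice 1 to 4 within each group.

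Sinusoidal endothelial cells line the capillaries of the liver. They are fenestrated, lack an ordinary basement membrane and clear waste molecules from the blood through scavenger and Fc receptors. They also act as an angiocrine tissue: BMP2 from these cells induces the iron hormone hepcidin in hepatocytes, while WNT2 and R-spondin 3 from endothelial cells around the central vein maintain beta-catenin target genes in the hepatocytes next to them. VEGF acts on them through KDR.

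On the mm10 build, the table places *Stab2* at chr10:86841198-87008025, *Lyve1* at chr7:110850607-110862953, *Clec4g* at chr8:3707064-3717553, *Oit3* at chr10:59422958-59441778, *Fcgr2b* at chr1:170960558-170976127, *Kdr* at chr5:75932827-75978458 and *Rspo3* at chr10:29453109-29535867, all on the minus strand. *Bmp2* lies on the plus strand at chr2:133552159-133562885. The interval given for *Stab1*, chr14:31139013-31139848, is that of a 413-base transcript of 3 exons at the 3′ end of the gene. This interval shares 112 bases with *Nt5dc2* on the opposite strand, whose normalized values were 49 to 74 in control mice, 54 to 58 in Con A + PBS mice and 50 to 66 in Con A + hWJ-MSCs mice. The transcript listed for *Clec4g* is annotated as a nonsense-mediated decay form. Whether reads were assigned by strand is not given in the sources used here.

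Promoter sequence from RefSeq (GRCm38.p6) was matched for 5 of the 9 genes, and the 240 bases from 250 to 11 bases before the annotated start are shown for 3 of them, *Clec4g*, *Kdr* and *Stab1*. These are the start regions of a lectin, a growth factor receptor and a scavenger receptor gene that all fell after Con A. The windows of *Stab2* and *Fcgr2b* overlap the annotated span of these genes themselves and are not printed. Each is written 5′ to 3′ on the minus strand, the strand of the gene, and capitals mark the motif matches.
Clec4g, chr8:3720662-3720901: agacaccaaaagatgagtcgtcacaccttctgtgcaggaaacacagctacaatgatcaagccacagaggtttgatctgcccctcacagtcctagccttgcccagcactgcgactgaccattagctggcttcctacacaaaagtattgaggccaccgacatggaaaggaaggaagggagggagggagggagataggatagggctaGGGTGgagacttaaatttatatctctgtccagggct
Kdr, chr5:75978466-75978705: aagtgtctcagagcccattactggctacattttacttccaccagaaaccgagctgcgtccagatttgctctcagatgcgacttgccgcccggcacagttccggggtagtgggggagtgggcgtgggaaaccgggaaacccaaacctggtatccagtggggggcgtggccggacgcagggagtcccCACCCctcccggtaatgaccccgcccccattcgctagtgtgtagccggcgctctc
Stab1, chr14:31168652-31168891: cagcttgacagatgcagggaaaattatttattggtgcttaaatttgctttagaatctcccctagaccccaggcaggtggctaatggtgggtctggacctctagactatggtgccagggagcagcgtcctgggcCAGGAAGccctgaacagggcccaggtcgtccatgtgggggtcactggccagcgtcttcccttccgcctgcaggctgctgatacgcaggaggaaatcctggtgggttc
Both strands were searched for GATAA (the core bound by GATA factors), CAGGAAG (an ETS core), TTCNNNGAA (the STAT palindrome) and CACCC (a KLF core). The *Clec4g* window held CACCC on the opposite strand, read as GGGTG, at -46 to -42 relative to the start. The *Kdr* window held CACCC at -65 to -61, and the *Stab1* window held CAGGAAG at -117 to -111. No other match was found in these 3 windows. Of the windows not printed, that of *Fcgr2b* held 2 CACCC matches and that of *Stab2* none of the motifs, and no relation between motif and size of change was tested. Among 32851 promoter windows of the same length, 50.6% held CACCC, 10.4% CAGGAAG, 22% GATAA and 6.77% TTCNNNGAA.

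All values below are the deposited normalized values, which share one distribution across mice, with a median of 352 in each mouse. The depth behind them is unknown. *Alb*, the gene of serum albumin, stood at the ceiling of the scale, 341028, in all 12 mice, as fits the liver label. Group differences were tested with limma on log2(value + 1), and a gene was called when its Benjamini-Hochberg adjusted p over all genes was below 0.05 and its fold change was above 1.5. On a log2 scale, that fold is 0.585.

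After Con A, most sinusoidal genes were lower in whole liver. In the Con A + PBS group compared with control, 7 of the 9 genes fell, *Lyve1* rose and *Rspo3* did not pass the test. The median log2 change of the 9 genes was -1.55, against 0.05 over all genes. Over all genes, 19.5% were called raised and 19.2% lowered. In all of the 8 called genes the mice of the groups did not overlap, with every Con A + PBS mouse below every control mouse for 7 genes (23.4% of all genes) and above for 1 (27.1% of all genes). Every gene of the table reached a value of 64 in at least 2 mice. *Clec4g*, *Oit3* and *Bmp2* did so in fewer than 2 of the 8 mice given Con A, so that they entered the table through the control group and had to be lower after Con A. The median of -1.55 includes these 3 genes. Of the other 6 genes, 4 fell, *Stab1* (-0.82), *Stab2* (-0.79), *Fcgr2b* (-1.55) and *Kdr* (-2.52). *Lyve1* rose by 1.29 and *Rspo3* changed by -0.15. Of the genes below, *Cd300lg*, *Tmem204*, *Sox17*, *Lama4*, *Nkd1*, *Cd163*, *Vsig4*, *Colec11*, *Ngfr* and *Angptl6* likewise entered through the control group. *Cd34*, *Olr1* and *Thy1* entered through the mice given Con A. In bulk tissue, fewer endothelial cells and less of an RNA per cell cannot be told apart.

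The steepest fall was in *Clec4g*, which encodes LSECtin, a C-type lectin of sinusoidal endothelium. Control mice had normalized values of 812, 608, 503 and 493, Con A + PBS mice 9, 16, 3 and 8, and Con A + hWJ-MSCs mice 18, 47, 20 and 12. The 8 mice given Con A thus formed a low range far beneath the control mice. The control mean was 604 ± 148 (SD, n = 4), and the Con A + PBS group kept 1.49% of it, a log2 change of -6.07 ± 0.45 (SE, adjusted p = 8.6e-07, limma). With a pseudocount of 10 in place of 1, the change was -5.03, because values this low depend on the pseudocount.

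*Oit3*, a gene with a zona pellucida domain expressed in sinusoidal endothelium, behaved similarly but kept more of its level. Its normalized values were 396, 300, 246 and 356 in control mice, 36, 54, 42 and 44 in Con A + PBS mice, and 40, 74, 52 and 44 in Con A + hWJ-MSCs mice. Both groups given Con A sat close together and apart from control. The log2 change after Con A was -2.85 ± 0.21 (SE, adjusted p = 9.3e-07, limma), which left 13.6% of the control mean.

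The 2 stabilins, large scavenger receptors that clear hyaluronan and modified proteins from blood, fell less. *Stab1* had normalized values of 1004, 810, 730 and 877 in control mice, 466, 537, 456 and 471 in Con A + PBS mice, and 560, 704, 594 and 504 in Con A + hWJ-MSCs mice. *Stab2* had 978, 714, 727 and 830 in control mice, 458, 496, 508 and 412 in Con A + PBS mice, and 681, 696, 761 and 682 in Con A + hWJ-MSCs mice. For both genes the control and Con A + PBS mice formed separate ranges. In Con A + PBS mice *Stab1* was at 56.4% of the control mean (log2 change -0.82 ± 0.13 SE, adjusted p = 1.7e-04, limma) and *Stab2* at 57.7% (-0.79 ± 0.11 SE, adjusted p = 1.2e-04).

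*Fcgr2b*, the inhibitory Fc receptor with which sinusoidal endothelium takes up immune complexes and which B cells and macrophages also carry, fell further. Its normalized values were 605, 479, 433 and 433 in control mice, 156, 247, 194 and 96 in Con A + PBS mice, and 211, 388, 252 and 260 in Con A + hWJ-MSCs mice. Mouse 2 was the highest in both groups given Con A. The log2 change of Con A + PBS against control was -1.55 ± 0.26 (SE, adjusted p = 3.2e-04, limma), with 35.5% of the control mean left.

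*Lyve1*, a hyaluronan receptor shared by sinusoidal endothelium, lymphatic vessels and some tissue macrophages, moved the opposite way. It had normalized values of 86, 74, 72 and 134 in control mice, 223, 252, 207 and 196 in Con A + PBS mice, and 139, 118, 105 and 108 in Con A + hWJ-MSCs mice. Every Con A + PBS mouse exceeded every mouse of the other groups, while control mouse 4 reached into the Con A + hWJ-MSCs range. The log2 change after Con A was 1.29 ± 0.19 (SE, adjusted p = 1.1e-04, limma), to 240% of the control mean.

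*Kdr*, which encodes VEGF receptor 2, fell to 18.5% of the control mean. It had normalized values of 540, 520, 362 and 598 in control mice, 88, 152, 88 and 46 in Con A + PBS mice, and 108, 208, 176 and 105 in Con A + hWJ-MSCs mice. The groups given Con A overlapped each other, and neither reached the control range. Against control, the log2 change of Con A + PBS was -2.52 ± 0.32 (SE, adjusted p = 4.8e-05, limma).

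The angiocrine pair split, but *Bmp2* entered the table through control and so had to be lower after Con A. *Bmp2* had normalized values of 284, 212, 148 and 211 in control mice, 50, 60, 29 and 20 in Con A + PBS mice, and 35, 48, 44 and 34 in Con A + hWJ-MSCs mice. *Rspo3*, which encodes the secreted enhancer of Wnt signals R-spondin 3 and is also made by other stromal cells, had 268, 206, 200 and 247 in control mice, 174, 214, 226 and 211 in Con A + PBS mice, and 196, 228, 196 and 210 in Con A + hWJ-MSCs mice. *Bmp2* left the control range in each mouse given Con A, whereas the *Rspo3* ranges of all groups overlapped. After Con A, *Bmp2* changed by -2.48 ± 0.31 on the log2 scale (SE, adjusted p = 4.2e-05, limma), and *Rspo3* by -0.15, with a 95% interval of -0.42 to 0.11 (adjusted p = 0.305). That interval does not reach the 1.5-fold threshold.

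**Figure D1:**
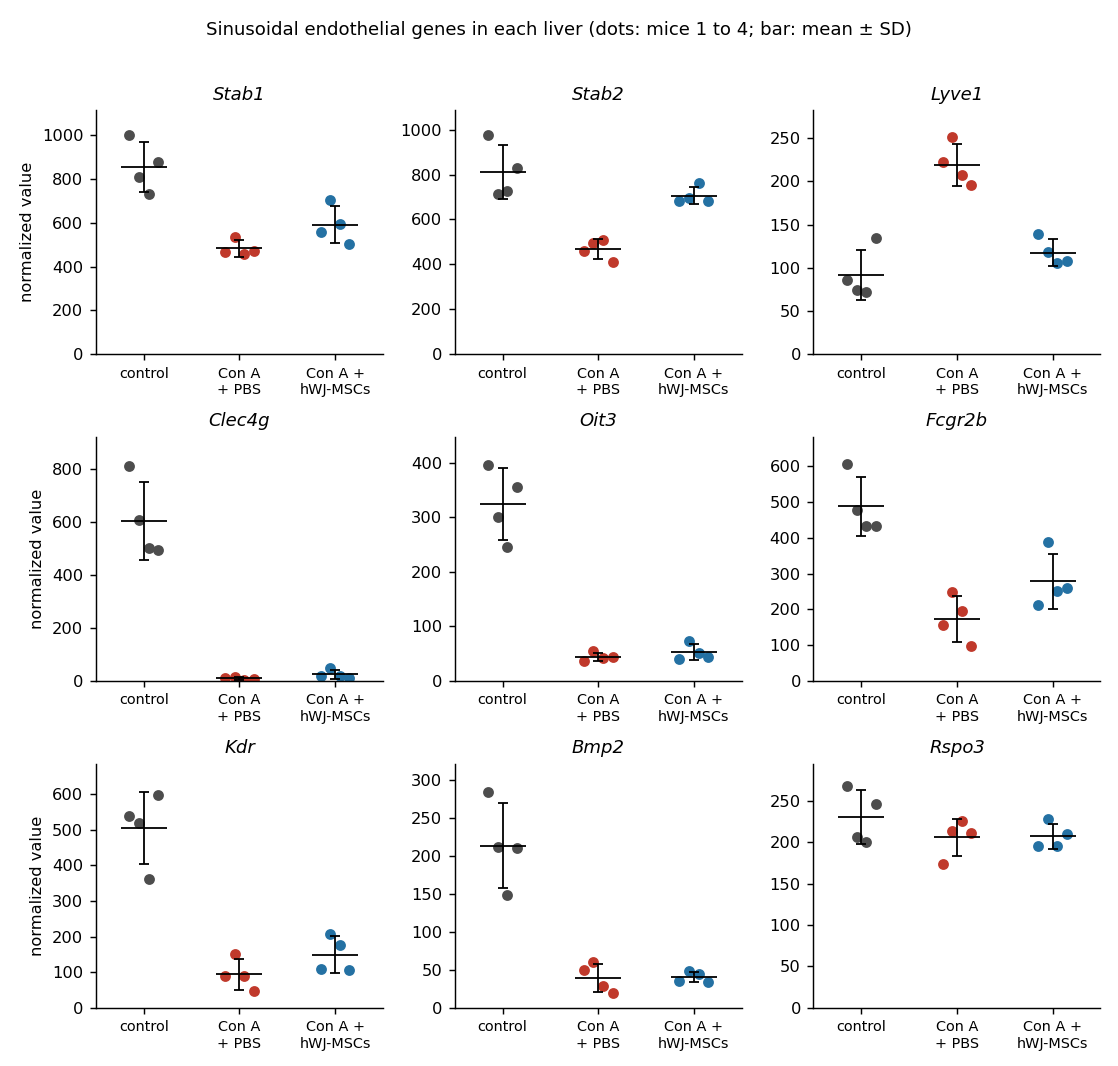
Normalized value (vertical axis, from 0) of the 9 sinusoidal genes in each liver of the 3 groups; dots are mice 1 to 4, and bars give the mean ± SD (n = 4). Con A + PBS mice lay below all control mice for 7 genes and above them for *Lyve1*, while *Rspo3* overlapped in all groups.

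The second comparison asked how these genes differed between mice given hWJ-MSCs and mice given PBS, all of which had received Con A. *Stab2* was higher and *Lyve1* lower after hWJ-MSCs, and the other 7 genes were not called. The share of all genes called raised was 4.2%, and of those called lowered 4.38%. The median log2 difference was 0.28 for the 9 genes and 0.00 for all genes. Every Con A + hWJ-MSCs mouse was above every Con A + PBS mouse for *Stab2* (11.9% of all genes) and below for *Lyve1* (11.6% of all genes), and the groups overlapped for the other 7.

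*Stab2* reached 86.8% of the control mean in the Con A + hWJ-MSCs group, with a log2 difference of 0.59 ± 0.11 from Con A + PBS (SE, adjusted p = 0.0199, limma), just past the 1.5-fold threshold. *Lyve1* came down to 128% of the control mean, with a log2 difference of -0.90 ± 0.19 (SE, adjusted p = 0.0224). Both differences pointed toward control. Neither call held in every fit that left out 1 mouse. For *Stab2* it was lost without Con A + PBS mouse 1 (log2 0.58, adjusted p = 0.0696) or 4 (0.53, below the fold threshold), and without Con A + hWJ-MSCs mouse 2 (0.60, adjusted p = 0.0651) or 3 (0.55). For *Lyve1* it was lost without Con A + PBS mouse 1 (-0.89, adjusted p = 0.0744), Con A + hWJ-MSCs mouse 2 (-0.90, adjusted p = 0.0692) or mouse 3 (-0.85, adjusted p = 0.0645).

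For 4 further genes, the interval of the difference between the groups given Con A lay above 0 without passing the adjusted threshold. *Clec4g* differed by a log2 of 1.34 (95% interval 0.37 to 2.31, adjusted p = 0.0619, limma), from 1.49% to 4.02% of the control mean. *Fcgr2b* differed by 0.72 (0.16 to 1.28, adjusted p = 0.0752) and *Kdr* by 0.73 (0.02 to 1.43, adjusted p = 0.132). *Stab1* differed by 0.28 (0.01 to 0.55, adjusted p = 0.13), an interval under the 1.5-fold threshold. Con A + PBS mouse 2, the highest mouse of its group for 7 of the 9 genes, decided 3 of these calls: without it, *Clec4g* (1.65, adjusted p = 0.0269), *Fcgr2b* (0.92, adjusted p = 0.0285) and *Kdr* (1.00, adjusted p = 0.0382) were called. *Clec4g* was also called without Con A + hWJ-MSCs mouse 4 (1.60, adjusted p = 0.0402).

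For the other 3 genes the interval spanned 0. *Oit3* differed by 0.22 (95% interval -0.24 to 0.69, adjusted p = 0.479, limma), *Bmp2* by 0.13 (-0.56 to 0.81, adjusted p = 0.805) and *Rspo3* by 0.01 (-0.25 to 0.28, adjusted p = 0.955). The intervals of *Oit3* and *Bmp2* reached past 1.5-fold on the higher side, and that of *Rspo3* did not. The sign turned for *Bmp2* without Con A + PBS mouse 4 (-0.15) and for *Rspo3* without Con A + PBS mouse 1 (-0.07) or Con A + hWJ-MSCs mouse 2 (-0.03).

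The third comparison set Con A + hWJ-MSCs mice against control, and so gave the distance that remained 24 h after Con A. It shares its groups with both comparisons above. *Clec4g*, *Oit3*, *Bmp2*, *Kdr* and *Fcgr2b* were lower than in control, none of the 9 genes was called higher, and *Stab1*, *Stab2*, *Lyve1* and *Rspo3* were not called. Of all genes, 13.6% were called raised and 13.1% lowered. The median log2 change was -0.83 for the 9 genes and 0.04 for all genes. *Clec4g*, *Oit3* and *Bmp2* entered the table through control, so that a lower value was fixed for them here as well. The counts and the median include these 3 genes. Of the other 6 genes, *Kdr* and *Fcgr2b* were called lower. Every Con A + hWJ-MSCs mouse was below every control mouse for 6 genes (17.3% of all genes), and above for 0 (20.6% of all genes).

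*Clec4g* remained furthest from control, at a log2 change of -4.73 ± 0.45 (SE, adjusted p = 1.1e-05, limma). *Oit3* followed at -2.62 ± 0.21 (adjusted p = 3.1e-06), *Bmp2* at -2.36 ± 0.31 (adjusted p = 1.2e-04) and *Kdr* at -1.79 ± 0.32 (adjusted p = 0.00103). *Fcgr2b* was at 57.0% of the control mean. Its log2 change was -0.83 ± 0.26 (adjusted p = 0.0222), a call lost without control mouse 1 (-0.72, adjusted p = 0.0607), Con A + hWJ-MSCs mouse 1 (-0.71, adjusted p = 0.0689) or mouse 3 (-0.80, adjusted p = 0.0556).

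Among the uncalled genes, *Stab1* had every Con A + hWJ-MSCs mouse below control and an adjusted p of 0.00501 (limma), but its log2 change of -0.53 fell short of the 1.5-fold threshold. It passed without control mouse 3 (-0.61) or Con A + hWJ-MSCs mouse 2 (-0.62). *Stab2* differed from control by -0.19 (95% interval -0.44 to 0.06, adjusted p = 0.197) and *Rspo3* by -0.14 (-0.41 to 0.13, adjusted p = 0.383), both within the threshold. *Lyve1* differed by 0.40 (-0.01 to 0.80, adjusted p = 0.108). It was called higher without control mouse 4 (0.59, adjusted p = 0.00833), which had the highest *Lyve1* of its group.

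**Figure D2:**
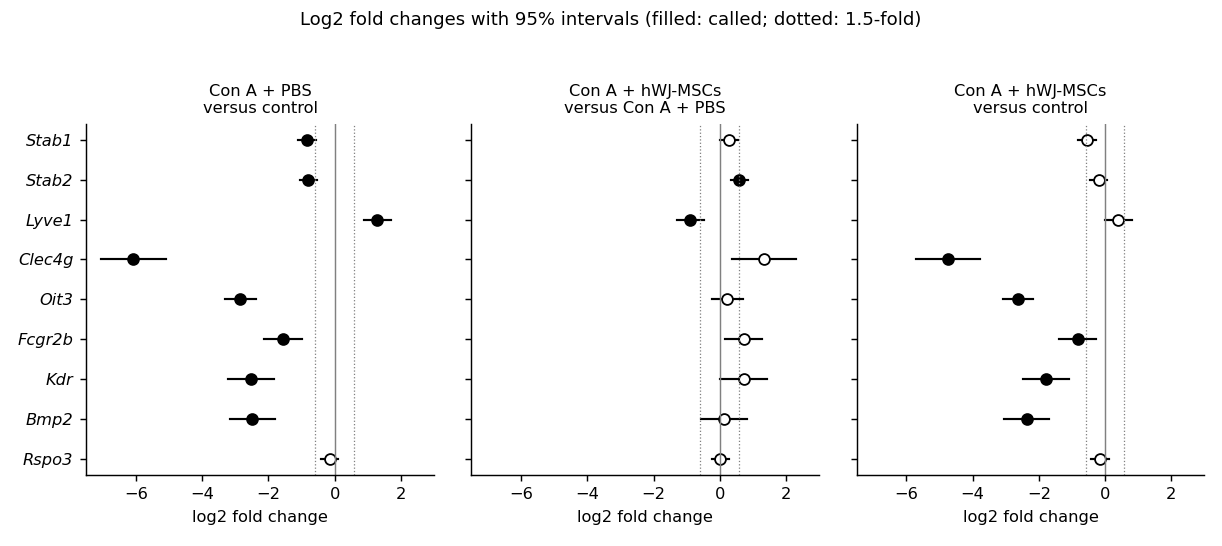
Log2 fold change (horizontal axis) with 95% interval for the 9 sinusoidal genes in the 3 comparisons; filled points were called, and dotted lines mark 1.5-fold. Called genes number 8 for Con A + PBS versus control, 2 between the groups given Con A and 5 for Con A + hWJ-MSCs versus control.

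Mice of one group differed in a shared way across these genes. Control mouse 1, Con A + PBS mouse 2 and Con A + hWJ-MSCs mouse 2 each had the highest value of their group for 7 of the 9 genes. The summed normalized value of the 9 genes was 4973, 3923, 3421 and 4179 in control mice, 1660, 2028, 1753 and 1504 in Con A + PBS mice, and 1988, 2511, 2200 and 1959 in Con A + hWJ-MSCs mice. Con A + hWJ-MSCs mouse 2 also stood apart over all genes, at -0.9 on the first principal component, where the other mice of its group lay between 23.1 and 33.2, Con A + PBS mice higher and control mice below 0.

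Genes whose profile over the 12 mice was nearest to each called gene were found by the root mean square difference of centred log2 values. *Gpr182*, an endothelial receptor, was nearest to *Kdr* (0.16) and next nearest to *Bmp2* (0.30). *Ehd3*, an endocytic gene of sinusoidal endothelium, came for *Oit3* (0.24) after *Ugt2a3* (0.21) and *Dmpk* (0.24). *Colec11*, a collectin of stellate cells, came for *Clec4g* (0.64) after *Cyp7a1* (0.61), the rate-limiting enzyme of bile acid synthesis, and *Car14* (0.63). For *Stab1* the nearest were *Rcbtb2* (0.09), *Inpp5k* (0.10) and *Fuca1* (0.10), and for *Stab2* *Gm11837* (0.08), *Rsph3b* (0.10) and *Sdhc* (0.10). *Fcgr2b* was nearest to *Fam213b* (0.15), *Mcc* (0.16) and *Aspa* (0.17), *Lyve1* to *Rhob* (0.24), *Atp8b2* (0.25) and *4933426M11Rik* (0.26), and *Kdr* next to *Ghr* (0.23) and *Camk1d* (0.25). *Bmp2* was nearest to *RP23-181K4.2* (0.28), followed by *Ptgs1* (0.32). Among the 9 genes themselves, *Stab1* and *Stab2* differed by 0.20, *Stab1* and *Rspo3* by 0.30, *Stab2* and *Rspo3* by 0.31, and *Kdr* and *Bmp2* by 0.36. The largest difference was 3.14, between *Clec4g* and *Lyve1*. Among all genes, *Stab2* ranked 236 for *Stab1* and *Stab1* 229 for *Stab2*. *Rspo3* ranked only 1421 for *Stab1* and 1617 for *Stab2*, and *Clec4g* ranked 11158 for *Stab1*. *Kdr* ranked 8 and *Oit3* 19 for *Bmp2*, while *Bmp2* ranked 55 for *Kdr* and 37 for *Oit3*.

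Other genes of sinusoidal endothelium were examined as a list, of which 22 of 27 genes were in the table. For this and each later list, the shares over all genes were 19.5% raised and 19.2% lowered after Con A. They were 4.2% and 4.38% between the groups given Con A, and 13.6% and 13.1% for Con A + hWJ-MSCs against control. For counts at an unadjusted p, no share over all genes is given. After Con A, 16 of these 22 fell and 0 rose (0 at an unadjusted p below 0.05), with a median log2 change of -1.20. Of the 22, 4 reached 64 in fewer than 2 mice given Con A and so entered the table through control. The steepest were *Cd300lg*, an endothelial glycoprotein (121 to 178 in control mice, 0 to 8 in Con A + PBS mice, log2 change -5.32 ± 0.64 SE), and *Ehd3* (648 to 1130, then 84 to 130, -3.06 ± 0.23). *Mrc1*, the mannose receptor, fell by 2.59 on the log2 scale and *Gpr182*, a receptor of sinusoidal and lymphatic endothelium, changed by -2.47. Against Con A + PBS, 0 of the 22 were raised (3 at an unadjusted p below 0.05) and 1 lowered after hWJ-MSCs, and 15 of the 22 were called below control, with a median of -0.90. Of those 15, 14 were among the 16 that fell in Con A + PBS mice. The 1 lowered gene was *Sgk1*, a kinase (log2 -0.98), named after its value was seen, and its call was lost without Con A + PBS mouse 1 (-1.04, adjusted p = 0.0696, limma) or Con A + hWJ-MSCs mouse 2 (-0.95) or 3 (-1.03).

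Genes that endothelium shares across organs were examined next. Of the 20 of 23 pan-endothelial genes in the table, 9 fell and 4 rose after Con A, with a median of -0.50. The direction was fixed by the minimum for 3 of the genes that rose, which entered the table through the mice given Con A, and for 3 that entered through control. *Ptprb*, the endothelial phosphatase VE-PTP, fell from 700 to 984 in control mice to 43 to 88 in Con A + PBS mice (log2 change -3.82 ± 0.33 SE). *Tmem204* changed by -3.00 and *Clec14a* by -2.59. The 7 genes not called were *Pecam1* (0.22), *Cdh5* (-0.27), *Tie1* (-0.73), *Egfl7* (-0.02), *Esam* (0.58), *Emcn* (-0.20) and *Klf2* (0.06). *Cd93* rose by 1.99, and its direction was not fixed by the minimum. These 7 genes and *Cd93* are named after their values were seen. *Klf4*, a transcription factor that many cell types use, rose by 4.02 ± 0.79 from 2 to 9 in control mice to 32 to 202. After hWJ-MSCs, *Klf4* was at 1 to 12 (log2 difference from Con A + PBS -3.55 ± 0.79 SE, adjusted p = 0.025, limma), and *Clec14a* was higher than in Con A + PBS (1.19 ± 0.35, adjusted p = 0.0446). *Klf4* reached 64 in 2 Con A + PBS mice and in no other mouse, so that a lower value after hWJ-MSCs was fixed by the minimum of the table, and it lost this call without Con A + PBS mouse 1 (-3.46, adjusted p = 0.0798) or 4 (-3.07), or Con A + hWJ-MSCs mouse 2 (-3.00) or 3 (-3.60). *Clec14a* lost it without Con A + PBS mouse 1 (1.22), 3 (1.16) or 4 (1.09), Con A + hWJ-MSCs mouse 2 (0.93) or 3 (1.02), or control mouse 2 or 4 (1.19 each). *Cdh5*, the adherens junction cadherin of endothelium and named after its value was seen, differed by -0.66, a call lost without any 1 of the 8 mice given Con A (-0.75 to -0.54) or control mouse 4 (-0.66). Of genes typical of continuous vessels, 5 of 14 were in the table, of which 3 rose and 2 fell after Con A. *Ly6a*, also induced in other cells by interferon, rose by 3.07 and *Cd34*, which marks vessels with a continuous lining, by 1.33, whereas *Vwf*, the von Willebrand factor, changed by -0.89 and *Sox17*, an arterial transcription factor, by -1.79. The call of *Vwf* was lost without control mouse 1 (-0.77), 2 (-0.92) or 4 (-0.91), or Con A + PBS mouse 1 (-0.94), 2 (-0.73) or 3 (-0.74). *Gja4*, named after its value was seen, rose by 0.65, a call lost without control mouse 1 (0.64) or 3 (0.47) or Con A + PBS mouse 1 (0.49). It was lower after hWJ-MSCs than in Con A + PBS mice (-0.95). That call was lost without Con A + PBS mouse 1 (-0.78) or Con A + hWJ-MSCs mouse 2 (-0.92) or 3 (-0.85).

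Other angiocrine genes, of which 14 of 23 were in the table, had 4 raised (19.5% of all genes) and 4 lowered (19.2%) after Con A. All 4 raised genes reached 64 in fewer than 2 control mice and so had to rise. *Angpt2* was among those that reached it in Con A + PBS mice only, so that a lower value after hWJ-MSCs was fixed as well. Among the lowered, *Igfbp7*, a secreted protein of vessel walls, went from 1018 to 1845 in control mice to 326 to 482 in Con A + PBS mice (log2 change -1.75 ± 0.22 SE, adjusted p = 3.9e-05, limma). *Lama4*, a laminin chain, changed by -1.41 and *Cxcl12*, a chemokine, by -1.19, both named after their values were seen. *Angpt2*, the ligand of TIE2 released by activated endothelium, rose from 8 to 16 in control mice to 76 to 112 in Con A + PBS mice and was 12 to 50 in Con A + hWJ-MSCs mice. *Thbd*, the anticoagulant receptor thrombomodulin, went from 24 to 43 in control mice to 164 to 266 and was 34 to 88 after hWJ-MSCs. Both were lower after hWJ-MSCs than in Con A + PBS mice: *Angpt2* by a log2 of -1.73 ± 0.41 (SE, adjusted p = 0.0268, limma) and *Thbd* by -1.86 ± 0.29 (adjusted p = 0.0149). *Angpt2* lost this call without Con A + PBS mouse 1 (-1.64, adjusted p = 0.0832) or 4 (-1.73), or Con A + hWJ-MSCs mouse 2 (-1.35) or 3 (-1.94), and *Thbd* without Con A + PBS mouse 1 (-1.79, adjusted p = 0.0696) or Con A + hWJ-MSCs mouse 3 (-1.80). *Inhbb*, the activin B subunit, rose by 2.23 after Con A and differed by -1.12 between the groups given Con A (adjusted p = 0.0548). Of 7 of the 9 VEGF family genes in the table, 2 fell (19.2% of all genes) and 0 rose (19.5%). The 2 were *Flt4* (-1.71) and *Flt1* (-0.59), the genes of VEGF receptors 3 and 1. *Flt1* was under the fold threshold without control mouse 2 (-0.56) or 4 (-0.55) or Con A + PBS mouse 4 (-0.47). Between the groups given Con A, 0 of the 7 were called by limma, and 0 had an unadjusted p below 0.05.

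Genes downstream of the angiocrine ligands were described in the same way. Of BMP targets, receptors and antagonists, 18 of 21 were in the table. After Con A, 4 rose (19.5% of all genes) and 3 fell (19.2% of all genes), with a median log2 change of 0.10. For 18 genes, these counts are near those shares. *Hamp2*, a hepcidin gene nearly identical to *Hamp* and so uncertain in its reads, was 2362 to 20917 in control mice, 90 to 621 in Con A + PBS mice and 196 to 234 in Con A + hWJ-MSCs mice (log2 change after Con A -4.70 ± 0.64 SE, adjusted p = 7.4e-05, limma). *Id1*, a general BMP target, rose by 1.61 ± 0.31, *Smad9* fell by 1.57 and *Tmprss6*, a hepcidin suppressor, by 1.51. *Hamp*, the hepcidin gene itself, did not follow *Hamp2*: its log2 change was 0.77 after Con A, not called, and it was called higher in Con A + hWJ-MSCs mice than in control (1.13), a call lost without control mouse 2 (1.13) or 4 (0.80) or Con A + hWJ-MSCs mouse 3 (1.03) or 4 (0.92). It is named after its value was seen, and its reads are uncertain in the same way. Between the groups given Con A, 0 of the 18 were called by limma, and 2 had an unadjusted p below 0.05, both lower after hWJ-MSCs.

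Of Wnt and R-spondin targets and receptors, 25 of 26 were in the table, of which 18 fell and 1 rose after Con A, with a median of -1.16. *Cyp1a2*, a drug-metabolising enzyme of the hepatocytes around the central vein, was 6748 to 10944 in control mice and 278 to 832 in Con A + PBS mice, a log2 change of -4.39 ± 0.31 (SE, adjusted p = 6.0e-07, limma). *Glul*, the glutamine synthetase of the same hepatocytes, went from 7966 to 12230 in control mice to 1741 to 2004 (-2.52 ± 0.22, adjusted p = 2.8e-06). *Nkd1* and *Notum*, negative regulators of Wnt signalling that are themselves induced by it, changed by -3.48 and -3.40. In the same livers *Rspo3* was not called. Between the groups given Con A, 1 gene was raised and 1 lowered, *Lect2* (log2 0.97) and *Ctnnb1* (-0.59), both named after their values were seen, and *Glul* differed by 0.04 (adjusted p = 0.909). Against control, 14 of the 25 genes were lower after hWJ-MSCs, 13 of them among the 18 that fell in Con A + PBS mice. Of the 25, 2 entered the table through control. *Lect2* lost its call without Con A + PBS mouse 1 (1.01, adjusted p = 0.0696, limma) or Con A + hWJ-MSCs mouse 2 (0.94) or 3 (0.87). *Ctnnb1* lost its call without Con A + PBS mouse 1 (-0.58) or 2 (-0.54), or Con A + hWJ-MSCs mouse 1 (-0.58), 2 (-0.57) or 3 (-0.59).

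Scavenger and clearance receptors of all liver cells, of which 13 of 14 were in the table, had 7 lowered and 2 raised after Con A, with a median of -0.73. *Cd163*, the haemoglobin scavenger receptor of macrophages, changed by -3.68 and *Mrc1* by -2.59, while *Olr1*, a receptor for oxidised lipoprotein, rose by 4.66 ± 1.06 from 0 to 54 in control mice to 196 to 238. *Asgr2*, the asialoglycoprotein receptor subunit of hepatocytes, fell by 1.59 and was higher after hWJ-MSCs than in Con A + PBS mice (0.98 ± 0.22 SE, adjusted p = 0.0252, limma). That call was lost without Con A + PBS mouse 1 (0.94, adjusted p = 0.0761) or 4 (0.80), or Con A + hWJ-MSCs mouse 2 (0.82) or 3 (0.95).

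**Figure D3:**
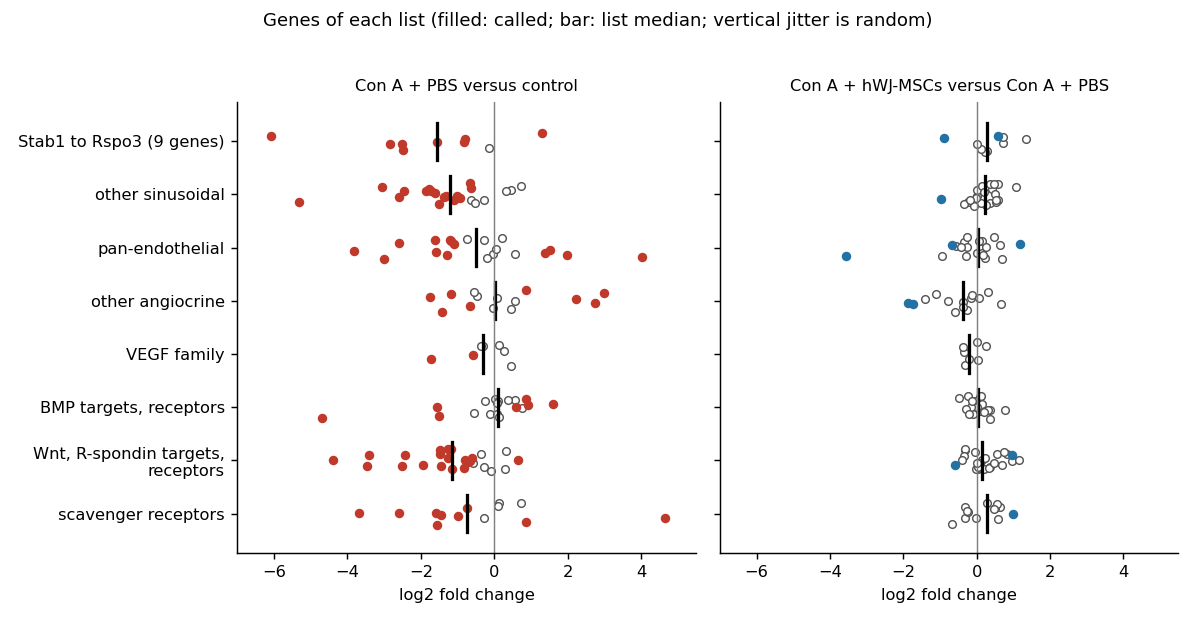
Log2 fold change (horizontal axis) of each gene of the 9 sinusoidal genes and 7 further lists; filled points were called, vertical bars are list medians, and vertical jitter is random. After Con A the median was -1.55 for the 9 genes and -1.20 for the other sinusoidal genes. These medians include 3 and 4 genes that entered the table through control and had to fall. Between the groups given Con A, list medians lay from -0.36 to 0.28.

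Markers of the other liver cell types moved in the same samples, and their part in the sinusoidal results was not tested. All 11 Kupffer cell markers were in the table and fell after Con A, of which 4 entered the table through control and had to fall. Their summed normalized value was 6034 to 9571 in control mice, 879 to 1704 in Con A + PBS mice and 741 to 2212 in Con A + hWJ-MSCs mice. *Clec4f*, which defines Kupffer cells, went from 1282 to 1646 in control mice to 43 to 76, *Vsig4*, a complement receptor, from 446 to 612 to 8 to 35, and *C1qa*, a complement subunit, from 864 to 1232 to 200 to 415. *Fcgr2b* is also expressed by Kupffer cells. Stellate cell markers, all 12 in the table, had 7 lowered, 3 of them genes that entered the table through control, and 0 raised after Con A (8 and 1 at an unadjusted p below 0.05). Their sum was 6792 to 11199 in control mice, 6341 to 7272 in Con A + PBS mice and 4581 to 5772 in Con A + hWJ-MSCs mice. Most of the sum after Con A was *Dcn*, a matrix proteoglycan gene that was not called (2584 to 4938 in control mice, 4466 to 5402 in Con A + PBS mice, log2 change 0.48), so that the sum does not show the fall of the other markers. Of these, *Colec11* changed by -5.08, *Ngfr* by -4.79 and *Angptl6* by -4.16, and *Colec11* (1.31 ± 0.34 SE, adjusted p = 0.0326, limma) and *Angptl6* (1.05 ± 0.25, adjusted p = 0.0264) were higher after hWJ-MSCs than in Con A + PBS mice. Both calls were lost without Con A + PBS mouse 1 (1.36 and 1.06) or 4 (1.36 and 0.91), or Con A + hWJ-MSCs mouse 2 (0.92 and 0.99) or 3 (1.29 and 0.99), and that of *Colec11* also without Con A + PBS mouse 3 (1.25).

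Of 10 hepatocyte markers, 4 fell (19.2% of all genes) and 0 rose (19.5%) after Con A, and 0 rose at an unadjusted p below 0.05. The sum was 739280 to 988411 in control mice, 580531 to 653010 in Con A + PBS mice and 627403 to 636822 in Con A + hWJ-MSCs mice. *Alb* made up 341028 of each sum, at the ceiling of the scale, and *Ttr*, the transthyretin gene, reached that ceiling in control mouse 1 against 72623 in the other control mice, so that the sum is a poor measure of hepatocyte RNA. *Cyp8b1*, a bile acid enzyme, changed by -5.98 and *Apoa1* by -1.73. Monocyte and neutrophil markers, 10 of 12 in the table, had 9 raised and 1 lowered. Their sum was 10767 to 15694 in control mice, 81639 to 346872 in Con A + PBS mice and 73047 to 90042 in Con A + hWJ-MSCs mice, and it rests on different genes in the groups: in control mice mostly on *F10*, the coagulation factor X gene of hepatocytes (9400 to 12210), and in Con A + PBS mice mostly on *Lcn2*, which hepatocytes also make (72682 to 341028, against 1020 to 4920 in control mice). *F10* was the 1 lowered marker (-0.76), under the fold threshold without Con A + PBS mouse 4 (-0.54). It was higher after hWJ-MSCs than in Con A + PBS mice (0.93 ± 0.23 SE, adjusted p = 0.0287, limma), a call lost without Con A + PBS mouse 1 (0.98), 3 (0.96) or 4 (0.71) or Con A + hWJ-MSCs mouse 2 (0.86) or 3 (0.80). Of the 9 raised, 5 reached 64 in fewer than 2 control mice and so entered the table through the mice given Con A. *S100a8* and *S100a9*, the neutrophil calprotectin genes and both among these 5, rose by 5.06 and 4.89. All 5 of the 14 T and NK cell markers in the table rose, from a sum of 39 to 75 in control mice to 600 to 1111, and were 582 to 1130 after hWJ-MSCs. None of these 5 reached 64 in 2 control mice, so that they entered the table only through the mice given Con A and their rise was fixed by that minimum. *Gzmb*, a cytotoxic granule protease, rose by 5.32, and *Cd8a*, listed at 0 in at least 1 control mouse, was 38 to 98 in Con A + PBS mice.

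B cell markers, 2 of 9 in the table, summed to 156 to 408 in control mice, 102 to 244 in Con A + PBS mice and 150 to 284 in Con A + hWJ-MSCs mice, with *Cr2* at 0 in at least 1 Con A + PBS mouse. *Ighm* was lowered (-0.92), a call that held in only 3 of the 12 fits that left out 1 mouse (-0.96 to -0.69 where it was lost). Of 6 cholangiocyte markers, 3 were in the table and *Sox9*, a duct transcription factor, rose by 1.83; their sum was 2254 to 4431 in control mice, 2340 to 13241 in Con A + PBS mice and 2208 to 6466 in Con A + hWJ-MSCs mice. Lymphatic markers bear on *Lyve1*. Of the 7, 5 were in the table and 1 rose and 2 fell after Con A: *Thy1*, which T cells also carry, rose by 2.96, and *Flt4* and *Reln* fell. *Prox1*, the lymphatic transcription factor that hepatocytes also express, was 1748 to 2034 in control mice and 2000 to 2954 in Con A + PBS mice (log2 change 0.45, not called). Most of the summed value of the 5 was *Prox1*, so that the sum does not show the changes of the others. It was 2537 to 3323 in control mice, 2425 to 3390 in Con A + PBS mice and 2517 to 3397 in Con A + hWJ-MSCs mice.

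**Figure D4:**
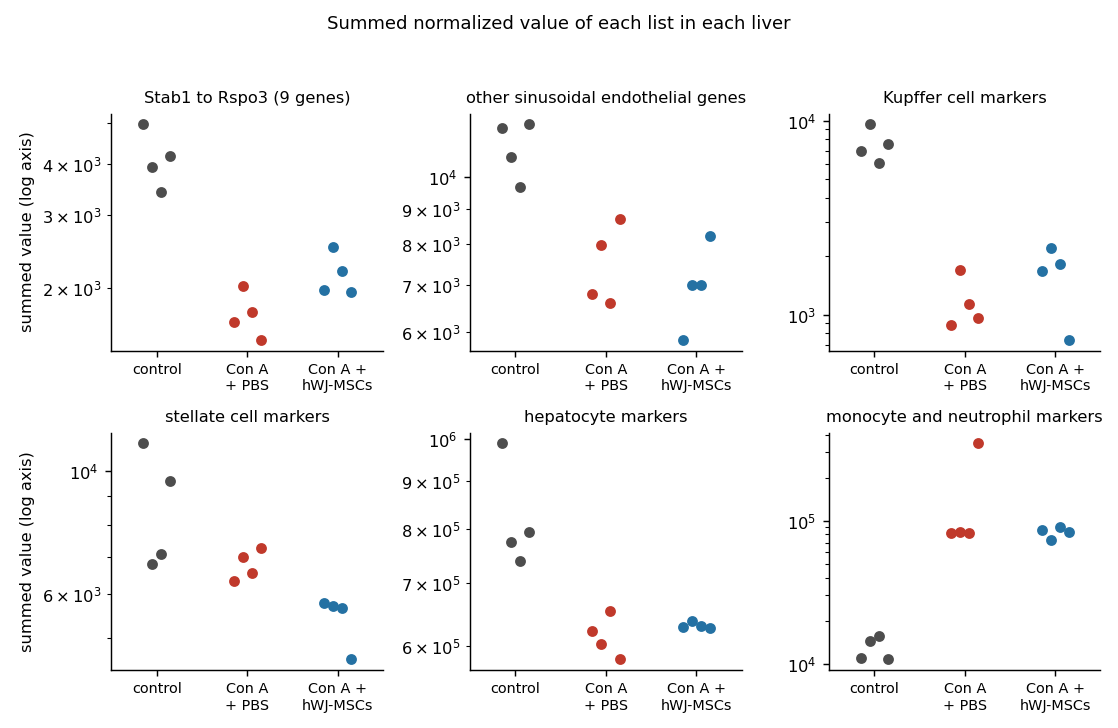
Summed normalized value (vertical axis, log scale) of the 9 sinusoidal genes and of 5 other lists in each liver; dots are mice 1 to 4 of each group. The 9 genes summed to 3421 to 4973 in control mice, 1504 to 2028 in Con A + PBS mice and 1959 to 2511 in Con A + hWJ-MSCs mice.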

How the data were processed

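Poly(A) RNA from 12 livers was sequenced by the authors as paired 150-bp reads, and the submitters' processing notes name mm10, Bowtie2 2.2.1 and RSEM 1.2.18. The deposited whole numbers are treated as normalized scores, because 82.1% of ranks held the same value in all mice. How the authors normalized them is not given in the sources used here. No count model was used, and depth is unknown. Each gene reached 64 in at least 2 mice.

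All 11289 genes were fitted in 1 model of the 12 mice without covariates, with limma 3.58.1 (R 4.3.3) on log2(value + 1), which understates changes of low genes. The fit was tested on simulated data. Every member was named; in each of 16 other lists, at most 4 called genes were named by size of change after Con A, and 2 markers by level. The lists held 227 genes, 172 of them in the table. Members and lists were chosen with earlier results of these data known. Positions and names came from the table and GENCODE, promoters from RefSeq. The alternatives tried were pseudocount, a filter on the mean, centring, quantile normalization, mice compared, replicate block, unadjusted p and leaving out each mouse.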

Additional observations from a re-analysis of the deposited data

How the results depend on the processing

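Con A + PBS versus control kept its 8 called genes in every fit that left out 1 mouse and under the other settings, except that a mean of at least 100 removed *Bmp2*, which left 7. Between the groups given Con A, the 2 called genes became 1 with a pseudocount of 10, 4 with a replicate block (*Clec4g* and *Fcgr2b* were added) and 5 with unadjusted p. Leaving out 1 mouse gave 0 to 5. The 13 list genes called there became 28 with unadjusted p and 0 to 24 with 1 mouse left out; none of the 13 kept its call without Con A + PBS mouse 1 or Con A + hWJ-MSCs mouse 3, and 1 without Con A + hWJ-MSCs mouse 2. Over all genes, the 474 raised and 495 lowered became 5 and 2 without Con A + PBS mouse 1, 8 and 10 without Con A + hWJ-MSCs mouse 2, and 4 and 3 without Con A + hWJ-MSCs mouse 3. The log2 difference ranged from -0.15 to 0.36 for *Bmp2* and from -0.07 to 0.06 for *Rspo3*, with the sign turned in 1 and 2 of those fits. The cause was not tested. Of 537 values of the 9 genes under alternatives, 511 kept direction and call, 11 lost and 12 gained the call, and 3 changed sign. Deviations of mice with the same number correlated at -0.118 to 0.375, which does not settle whether the numbers pair the mice. Between the groups given Con A, the correlation was 0.375 for mice 2 and 0.244 for mice 4. Mice with other numbers reached at most 0.141 and 0.05 there. It was -0.043 for mice 1 and -0.087 for mice 3. The main fit used no pairing. Values are relative to a shared distribution, so a change in total RNA would not be seen, and 4 mice per group limit what small differences can be called.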
